A study of Rattus norvegicus with 6 samples.

Results

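A set of 10 genes that mark the muscle coat of blood vessels and the pericytes of capillaries were followed in a rat leg muscle: the contractile genes Acta2, Myh11, Tagln, Cnn1, Myl9 and Lmod1, and the pericyte genes Pdgfrb, Rgs5, Abcc9 and Notch3. They were chosen by name, and all 10 were found among the 30957 genes of the deposited table and passed the filter on low counts. The tissue was whole flexor digitorum longus, which curls the toes, from wild-type Sprague-Dawley rats. Control muscle was taken at 0 h (3 libraries) and muscle with acute osteofascial compartment syndrome (ACS), in which pressure in a closed muscle compartment limits its blood flow, at 18 h (3 libraries). ACS was brought on with a tight band around the knee. No control library was taken at 18 h, so ACS cannot be told apart from the time elapsed or from handling. The words rose and fell below mean higher and lower in the ACS 18 h than in the control 0 h libraries. The groups come from the sample titles, since the treatment field reads ACS for all 6 libraries. Neither age nor sex is stated in the sources used here, nor whether each library had its own rat, so the spread behind each p-value is that between libraries and may be technical.

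Vascular smooth muscle contracts when calcium activates the myosin light chain kinase, which phosphorylates the regulatory light chain of myosin, and relaxes when myosin phosphatase removes that phosphate. The genes for its filaments are switched on together by serum response factor, which binds the CArG box, and its partner myocardin. Pericytes wrap capillaries and share much of this programme at a lower level. They are held to the vessel by endothelial PDGF-B acting on Pdgfrb, and Notch ligands on endothelium signal to Notch3 on both cell types.

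Library totals lay between 14340865 and 21003928 counts. Mitochondrial genes took 7.52% to 8.60% of counts in control libraries, 4.82% and 5.33% in ACS replicates 2 and 3, and 43.4% in ACS replicate 1, which therefore stood apart, so results are also given without it. Levels below are CPM (counts relative to library size, scaled between libraries by TMM) unless FPKM, the authors' value per kilobase of gene, is named. By edgeR's quasi-likelihood test of 12873 genes, 3.43% had higher and 0.707% lower levels in ACS than in control libraries at an adjusted p under 0.05. At an unadjusted p under 0.05 the shares were 15.5% and 7.98%. DESeq2 called 7.03% higher and 2.28% lower, and limma-voom 2.04% and 0.552%, at an adjusted p under 0.05. Counts for the lists below are to be set beside these shares.

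Of the 10 genes, 1 fell and 0 rose. The gene that fell was Lmod1, which encodes leiomodin 1, the actin filament nucleator of smooth muscle. Notch3 stood next in size but did not pass the threshold. Acta2 and Tagln, the most abundant contractile transcripts per length in control muscle, had log2 fold changes of -0.10 and -0.31 that did not pass. At an unadjusted p under 0.05, 2 of the 10 were lower and 0 higher, against 7.98% and 15.5% of all genes. DESeq2 called 2 lower, against 2.28% of all genes, and limma-voom 1, against 0.552%. Neither called any of the 10 higher, against 7.03% and 2.04% of all genes. The median log2 fold change of the 10 was -0.28, beside -0.01 for all tested genes, and 8 of 10 were below 0, beside 50.7% of all genes. Scaling by library totals gave medians of -0.61 for the 10 and -0.32 for all genes. In that fit 5 of the 10 were lower at an unadjusted p under 0.05, against 1972 of all 12873 genes tested. Without ACS replicate 1 the adjusted call stayed at 1 lower, against 1.69% of all genes. The unadjusted count without that library was 4 lower and 0 higher, and its share over all genes is not given here. The 10 are few and were chosen by name, so these shares describe them only. In bulk tissue, fewer cells of a type and less RNA per cell cannot be told apart.

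**Figure D1:**
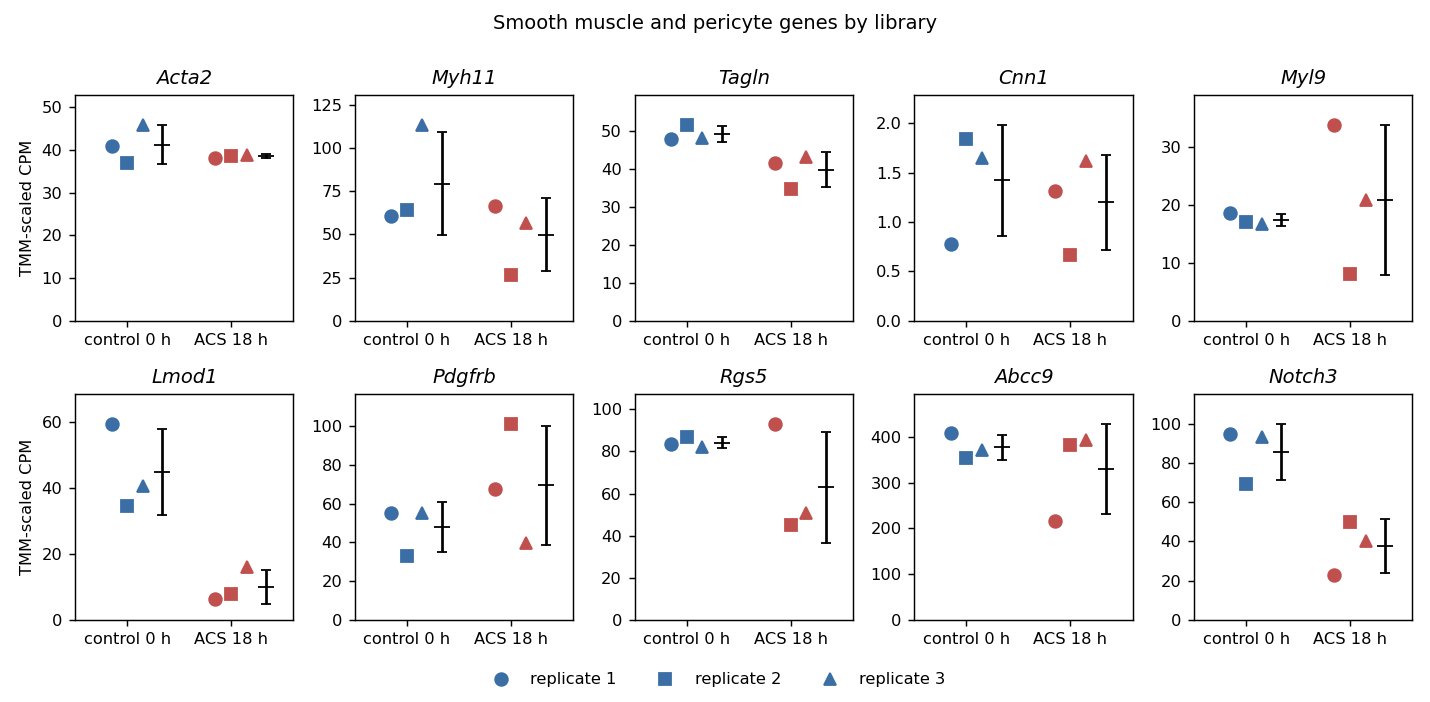
Each panel plots the TMM-scaled CPM (vertical axis, from 0) of a gene in the control libraries (blue) and ACS libraries (red), with marker shape giving the replicate number and the black bar the mean ± SD (n = 3). Lmod1, Notch3 and Tagln have every ACS library below every control library, while Acta2 sits between 38.1 and 38.9 CPM in all ACS libraries.

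Per gene length, the order of levels in control muscle was Rgs5, Abcc9, Tagln, Acta2, Myl9, Notch3, Myh11, Lmod1, Pdgfrb and Cnn1. Rgs5 stood at 75.4 ± 2.55 FPKM and Abcc9 at 54.8 ± 3.01 FPKM (SD, n = 3 each). Tagln (34.6 ± 1.85 FPKM) and Acta2 (33.3 ± 4.29 FPKM) did not differ beyond their spread, nor did Notch3 (13.1 ± 2.20 FPKM), Myh11 (12.5 ± 5.05 FPKM) and Lmod1 (11.1 ± 2.96 FPKM), whose libraries overlapped. Cnn1 was lowest at 1.07 ± 0.439 FPKM and rested on 13 to 40 counts a library, so its values carry the largest counting error. Among fibre genes Acta1 stood at 34206 FPKM in control, far above any of the 10 genes, and the 9 matched fibre markers were detected in every library.

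The start site regions of Acta2 and Notch3 are shown. On the TMM scale Acta2 had the smallest fold change of the contractile genes and Notch3 the largest of the pericyte genes. RefSeq (build GRCr8, a later build than the Rnor 6.0 of the counts) gave windows of 250 bases before to 50 after the start for 5 of the 10 genes. Capitals mark CArG-like boxes, which here allow at most 1 G or C in the A/T core, and TGGGAA, the core recognised by the Notch nuclear partner Rbpj, searched on both strands. Acta2 lies at chr1:241172454-241172753 on the minus strand and Notch3 at chr7:11834536-11834835 on the minus strand, each printed 5′ to 3′ along the gene.
Acta2: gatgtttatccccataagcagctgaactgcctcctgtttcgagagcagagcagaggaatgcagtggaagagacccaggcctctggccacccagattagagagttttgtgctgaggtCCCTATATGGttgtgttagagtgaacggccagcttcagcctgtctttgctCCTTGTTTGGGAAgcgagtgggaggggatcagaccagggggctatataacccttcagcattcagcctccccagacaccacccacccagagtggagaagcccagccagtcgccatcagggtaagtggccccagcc
Notch3: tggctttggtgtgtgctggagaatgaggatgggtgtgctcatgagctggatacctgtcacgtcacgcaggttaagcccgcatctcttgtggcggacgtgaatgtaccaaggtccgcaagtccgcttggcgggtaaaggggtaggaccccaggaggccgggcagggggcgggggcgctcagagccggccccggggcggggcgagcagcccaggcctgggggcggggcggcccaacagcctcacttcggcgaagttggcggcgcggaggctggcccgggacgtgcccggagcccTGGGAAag
Acta2 held 2 CArG-like boxes, the first from 134 to 125 and the second from 84 to 75 bases before the start, and the second overlaps its single TGGGAA. Windows with 2 or more CArG-like boxes made up 0.846% of the 33469 in the table, those with at least 1 made up 9.42%, and TGGGAA stood in 25.7%. Notch3 held TGGGAA once, after its start, and no CArG-like box. Of the other windows, Cnn1 held TGGGAA once on the opposite strand, and Rgs5 and Abcc9 held neither motif. These are matches of letters, not measured binding.

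Among the contractile genes, Lmod1 (ENSRNOG00000051548, chromosome 13, 52147555 to 52190228, Rnor 6.0) was at 59.5, 34.5 and 40.7 CPM in control replicates 1, 2 and 3 and at 6.27, 7.92 and 15.9 CPM in ACS replicates 1, 2 and 3. The highest ACS library was below the lowest control library, and the counts behind these levels were 713 to 1220 in control and 67 to 285 in ACS libraries. Every ACS library below every control library was seen in 14.8% of all tested genes, and in 3 of these 10 (Lmod1, Tagln and Notch3). The mean of Lmod1 was 44.9 ± 13.0 CPM in control and 10.03 ± 5.15 CPM in ACS libraries (SD over 3 libraries each), for a log2 fold change of -2.16 (SE 0.404, 95% interval -3.08 to -1.24, adjusted p = 0.0310, edgeR). Only 0.614% of tested genes had a log2 fold change as low or lower. Without ACS replicate 1 it was -1.92 (adjusted p = 0.0237). The call was lost without ACS replicate 2 (-2.03, adjusted p = 0.0747) and without control replicates 1, 2 and 3 (adjusted p = 0.164, 0.130 and 0.117), where no gene in the table passed. Lmod1 passed in 14 of 19 alternatives and was lower in ACS muscle in all 19. Of its relatives, Lmod3, the leiomodin of skeletal muscle fibres, was at 206 ± 18.9 CPM in control and 138 ± 37.7 CPM in ACS libraries (adjusted p = 0.266), and Lmod2 is listed at 0 in every library.

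Acta2 (ENSRNOG00000058039, chromosome 1, 252537615 to 252550394) encodes smooth muscle α-actin, the main actin of the vessel wall. It was at 40.8, 37.0 and 46.0 CPM in control and at 38.1, 38.7 and 38.9 CPM in ACS replicates 1, 2 and 3. On the TMM scale the ACS libraries lay within the range of the control libraries, so the groups overlapped. The log2 fold change was -0.10 on that scale (SE 0.223, 95% interval -0.61 to 0.41, adjusted p = 0.816), which leaves room for changes of up to that interval. By FPKM the groups did not overlap, at 31.9, 29.8 and 38.1 in control and 20.4, 27.9 and 26.5 in ACS libraries. The share of all genes that separate by FPKM was not computed. Scaled by library totals, edgeR gave -0.42 (adjusted p = 0.368), beside a median of -0.32 for all genes. Acta2 shares most of its coding sequence with the skeletal actin Acta1, whose mean was 44007 ± 9636 CPM in the control group and 37372 ± 18534 CPM in the ACS group. The sources used here do not say how reads that match both were counted, so the Acta2 level is uncertain. In ACS replicate 1 Acta1 was at 17372 CPM, against 40777 and 53967 in ACS replicates 2 and 3, while Acta2 differed by less than 1 CPM between these libraries. By FPKM both Acta1 (9015, 28482 and 35596) and Acta2 were lowest in ACS replicate 1.

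Tagln (ENSRNOG00000017628, chromosome 8, 50222896 to 50231357) encodes transgelin, an actin-bundling protein. Its control libraries were at 48.0, 51.8 and 48.2 CPM and its ACS libraries at 41.7, 34.7 and 43.3 CPM. All ACS libraries were below all control libraries, by a small margin: the log2 fold change was -0.31 (SE 0.225, 95% interval -0.82 to 0.21, adjusted p = 0.441). Tagln2, its relative in many cell types, was at 33.7 ± 4.73 and 47.3 ± 31.9 CPM (adjusted p = 0.537).

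Myh11 (ENSRNOG00000057880, chromosome 10, 764421 to 859184), the smooth muscle myosin heavy chain, moves the filaments. It was at 60.5, 64.1 and 114 CPM in control libraries and at 66.6, 26.2 and 56.6 CPM in ACS replicates 1, 2 and 3. On the TMM scale ACS replicate 1 lay above 2 control libraries, so the groups overlapped. By FPKM every ACS library was lower (6.95, 3.68 and 7.51, against 9.21, 10.1 and 18.4 in control). The share of all genes so placed by FPKM was not computed. Scaled by library totals, edgeR gave a log2 fold change of -1.05 (adjusted p = 0.141). With TMM it was -0.67 (SE 0.400, adjusted p = 0.342). The TMM value was -0.94 without ACS replicate 1 (adjusted p = 0.197) and -0.36 without control replicate 3 (adjusted p = 0.677). Of the non-muscle heavy chains, Myh10 was at 79.7 ± 19.9 and 52.2 ± 3.90 CPM (adjusted p = 0.211) and Myh14 at 98.7 ± 18.1 and 85.0 ± 11.9 CPM (adjusted p = 0.638), and Myh9, a gene most cells use, is listed at 0 in every library.

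Myl9 (ENSRNOG00000020246, chromosome 3, 152857592 to 152863960) encodes the regulatory light chain that the kinase phosphorylates. Control libraries were close together at 18.7, 17.0 and 16.8 CPM, and ACS libraries spread from 33.97 in replicate 1 to 8.03 in replicate 2, with 20.9 in replicate 3. ACS libraries thus lay on both sides of control. The log2 fold change was 0.26 (SE 0.454, adjusted p = 0.757), but -0.15 when scaled by library totals, -0.01 with limma-voom and -0.28 without ACS replicate 1, so no direction can be given. Its near relatives Myl12a and Myl12b, the regulatory chains of non-muscle myosin, were at 141 ± 14.5 and 184 ± 63.5 CPM and at 22.2 ± 4.33 and 36.6 ± 22.7 CPM (adjusted p = 0.473 and 0.342).

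Cnn1 (ENSRNOG00000027736, chromosome 8, 23113048 to 23121761), calponin 1, binds actin and slows its myosin. It was at 0.780, 1.84 and 1.65 CPM in control and at 1.31, 0.669 and 1.62 CPM in ACS libraries. The groups overlapped, with a log2 fold change of -0.26 and a wide interval, -1.45 to 0.94 (adjusted p = 0.795), and of 0.01 without ACS replicate 2. Cnn3, the calponin of non-muscle cells, had a log2 fold change of 1.41 (18.7 ± 1.57 and 49.7 ± 34.3 CPM, adjusted p = 0.102), with Cnn2 at 5.77 ± 1.19 and 8.11 ± 4.82 CPM (adjusted p = 0.563).

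**Figure D2:**
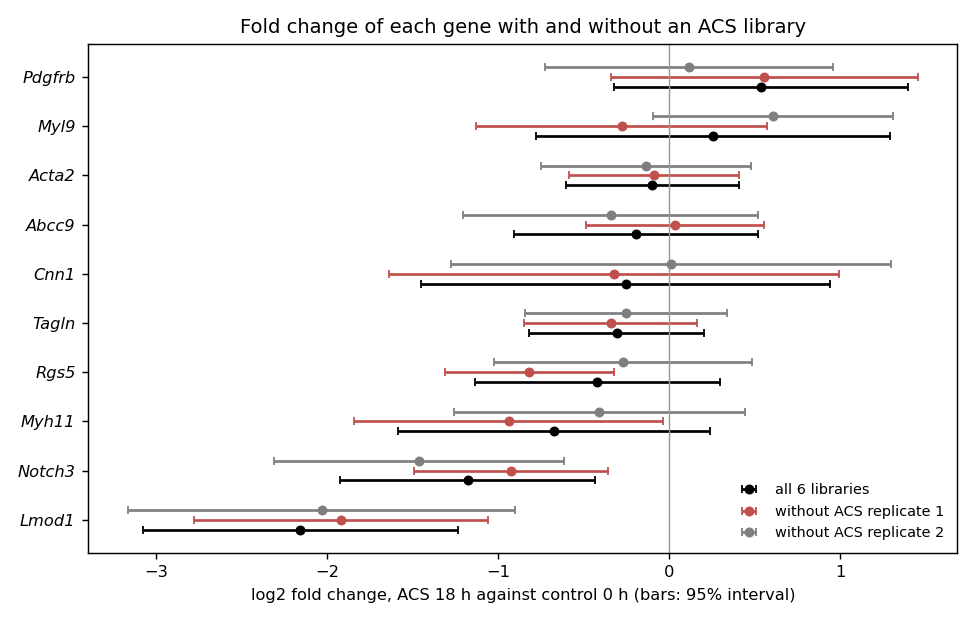
Log2 fold change of each gene, ACS 18 h against control 0 h (horizontal axis), from edgeR with all 6 libraries (black), without ACS replicate 1 (red) and without ACS replicate 2 (grey), with 95% intervals unadjusted for the number of genes. Lmod1 and Notch3 lie below 0 in each of these fits, and the sign of Myl9, Abcc9 or Cnn1 turns when 1 ACS library is left out.

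Of the 4 pericyte genes 0 passed the edgeR threshold, and 1, Notch3, had an unadjusted p under 0.05 and was called by DESeq2. Notch3 (ENSRNOG00000004346, chromosome 7, 14138495 to 14189688) encodes the Notch receptor of mural cells. Its control libraries were at 94.8, 69.2 and 93.0 CPM and its ACS libraries at 22.9, 50.01 and 40.4 CPM in replicates 1, 2 and 3. Every ACS library was below every control library. Means were 85.7 ± 14.3 CPM in control and 37.8 ± 13.7 CPM in ACS libraries (SD over 3 libraries each), for a log2 fold change of -1.18 (SE 0.326, 95% interval -1.92 to -0.44, adjusted p = 0.0750, edgeR; unadjusted p = 0.00606). Without ACS replicate 1 it was -0.92 (adjusted p = 0.0629). DESeq2 gave -1.20 with an adjusted p of 0.0143, and over the 19 alternatives the adjusted p lay between 0.0143 and 0.291, with the same direction in each.

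Pdgfrb (ENSRNOG00000018461, chromosome 18, 56364620 to 56406381), the receptor for PDGF-B on pericytes and fibroblasts, was the other way round. It was at 55.3, 32.9 and 55.3 CPM in control and at 67.3, 101 and 39.6 CPM in ACS libraries. ACS replicates 1 and 2 were above all control libraries and replicate 3 was within their range. The log2 fold change was 0.54 (SE 0.377, 95% interval -0.32 to 1.39, adjusted p = 0.423), and 0.11 when fitted without ACS replicate 2 (adjusted p = 0.876). Of the 9 fibroblast markers listed, 8 were tested and all 8 had fold changes above 0, with a median log2 fold change of 1.22 and 0 past the edgeR threshold (5 at an unadjusted p under 0.05, and 2 called by DESeq2). Their summed level lay between 719 and 1103 CPM in control and between 2373 and 3014 CPM in ACS libraries, and its part in the Pdgfrb level was not tested. The marker Col1a2 is listed at 0 in every library, although Col1a1 was at 357 ± 215 and 1310.0 ± 478 CPM.

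Rgs5 (ENSRNOG00000002730, chromosome 13, 87966758 to 88003035) shortens signals from Gq- and Gi-coupled receptors and is a classic pericyte marker. Control libraries were at 83.6, 86.9 and 81.9 CPM, and ACS libraries at 93.2, 45.0 and 50.7 CPM in replicates 1, 2 and 3. ACS replicate 1 was the highest of all libraries and the other 2 ACS libraries were below every control library. The log2 fold change was -0.42 (SE 0.314, adjusted p = 0.450). Dropping ACS replicate 1 made it -0.82 (adjusted p = 0.0594). Leaving out control replicates or the other ACS libraries gave -0.27 to -0.48.

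Abcc9 (ENSRNOG00000036960, chromosome 4, 176805431 to 176922424) encodes SUR2, the regulatory subunit of ATP-sensitive potassium channels, which pericytes and smooth muscle join to the pore Kcnj8 and muscle fibres to the pore Kcnj11. Abcc9 was at 408, 355 and 370 CPM in control and at 215, 382 and 392 CPM in ACS replicates 1, 2 and 3. On the TMM scale only ACS replicate 1 lay outside the control range. By FPKM every ACS library was lower (20.8, 49.6 and 48.1, against 51.5 to 57.5 in control). The share of all genes so placed by FPKM was not computed. The log2 fold change was -0.20 (SE 0.313, adjusted p = 0.730), and turned to 0.03 without that library (adjusted p = 0.953). Because fibres also make it, Abcc9 is not specific to vessels in this tissue. Kcnj11 followed the same order of ACS libraries, at 50.7, 192 and 298 CPM against 202 to 276 CPM in control, whereas Kcnj8, named after its values were seen, was at 7.77, 8.34 and 2.01 CPM against 12.8 to 14.4 CPM in control (log2 fold change -1.18, adjusted p = 0.185). The 9 matched fibre markers summed to 85934 CPM in ACS replicate 1, against 118629 and 207261 CPM in the other ACS libraries and 129578 to 153273 CPM in control, and their part in the Abcc9 values was not tested.

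Levels relative to Acta2 in the same library do not depend on how libraries are scaled, though they carry the uncertainty of the Acta2 count. The Lmod1 to Acta2 ratio of FPKM was 0.450, 0.288 and 0.274 in control and 0.0509, 0.0633 and 0.126 in ACS replicates 1, 2 and 3, a difference of -2.15 on the log2 scale. Notch3 to Acta2 went from 0.355 to 0.442 in control to 0.114, 0.246 and 0.198 in ACS libraries (-1.15 on the log2 scale). In both the groups did not overlap, and the CPM of Lmod1 and Notch3 separated in the same way, as in 14.8% of all tested genes. The share of genes whose ratio to Acta2 separates the groups was not computed, so these ratios restate the CPM values. Pdgfrb to Notch3, both pericyte receptors, was 0.528, 0.430 and 0.537 in control and 2.65, 1.83 and 0.885 in ACS libraries, with the highest control below the lowest ACS library. Of the pericyte genes Pdgfrb had the highest log2 fold change (0.54) and Notch3 the lowest (-1.18), so their ratio is not separate from those values. For each of these 3 ratios the two-sided exact permutation p was 0.1, the smallest that 3 libraries against 3 allow, so none could fall under 0.05. It was 0.275 after Benjamini-Hochberg adjustment over the 11 ratios computed. Pdgfrb to Rgs5 also gave an exact permutation p = 0.1, and the other 7 ratios overlapped between groups (exact p = 0.3 to 0.9).

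**Figure D3:**
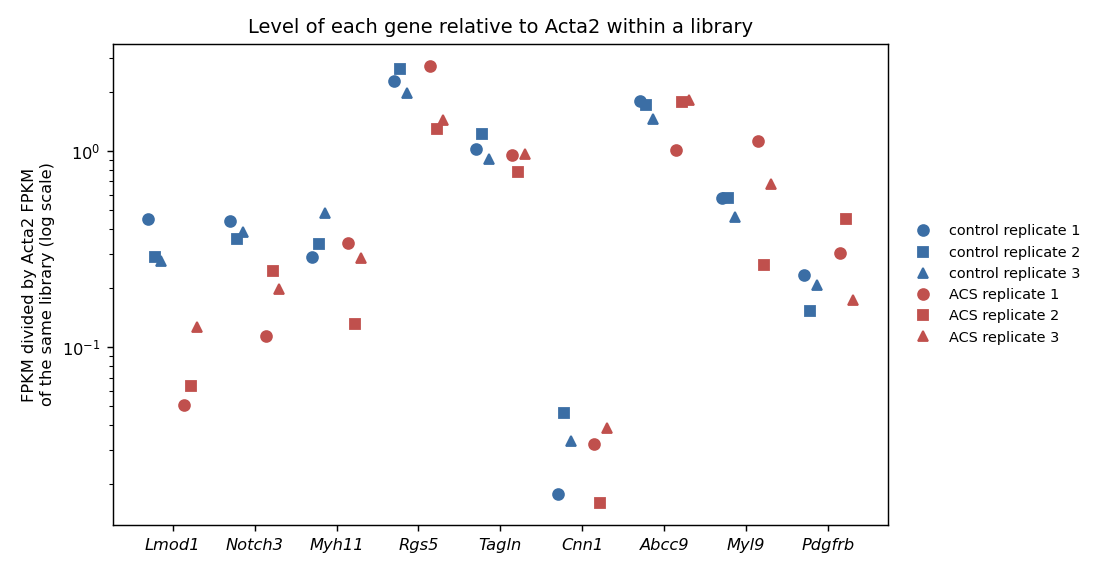
Each point is the FPKM of a gene divided by the Acta2 FPKM of the same library (vertical axis, log scale), for control (blue) and ACS (red) libraries, with marker shape giving the replicate. Lmod1 and Notch3 are lower relative to Acta2 in all ACS libraries, while the ratios of the other 7 genes overlap between the groups.

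Further genes of the smooth muscle programme gave a mixed picture. Of 15 listed, 14 were tested, 2 fell and 0 rose in edgeR (median log2 fold change -0.18). At an unadjusted p under 0.05, 4 were higher and 3 lower, and every ACS library was above every control library in 4 genes and below in 3, against 16.7% and 14.8% of all tested genes. DESeq2 called 3 higher and 2 lower, edgeR with no filter 2 higher and 2 lower, and limma-voom 0 higher and 1 lower. Over all genes, edgeR with no filter called 4.02% higher and 0.815% lower. Ppp1r14a, which encodes the myosin phosphatase inhibitor CPI-17, was at 2.05, 3.14 and 2.60 CPM in control and at 0.281, 0.566 and 0.502 CPM in ACS libraries (log2 fold change -2.47, SE 0.466, adjusted p = 0.0311). Pln, phospholamban, a brake on the calcium pump of the sarcoplasmic reticulum that slow muscle fibres also make, was at 3.56, 4.93 and 3.92 CPM and then at 1.31, 1.18 and 1.34 CPM (-1.69, SE 0.360, adjusted p = 0.0435). For both genes every ACS library was below every control library, with 3 to 11 counts of Ppp1r14a behind the ACS values. Both calls were lost without ACS replicate 2 (adjusted p = 0.0558 and 0.0831), and passed in 11 of 18 and 10 of 19 alternatives. They were also lost without any 1 control library, where no gene in the table passed. The gene of the list with the highest FPKM averaged over all libraries, Mustn1, a small nuclear protein that muscle fibres also make, was at 181 ± 70.5 and 519 ± 375 CPM (adjusted p = 0.124). That average rests on ACS replicate 2 (873 FPKM), and in control Synpo2 was higher (241 against 186 FPKM). Of the 8 filament genes shared with fibres, 0 passed in edgeR, DESeq2 or limma-voom (1 at an unadjusted p under 0.05 in edgeR), and the most abundant per length, Tpm2, was at 6426 ± 552 and 6167 ± 2283 CPM.

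The switch that sets light chain phosphorylation had 12 of 14 listed genes tested, of which Ppp1r14a fell and 0 rose in edgeR, and DESeq2 called 1 higher and 1 lower. The most abundant, Ppp1cb, the catalytic subunit of myosin phosphatase, was at 792 ± 65.7 and 995 ± 183 CPM (adjusted p = 0.537). Among serum response factor and its cofactors, 0 of 9 tested passed in edgeR, DESeq2 or limma-voom, and 1 had an unadjusted p under 0.05. Tead1, the most abundant per length, was at 143 ± 28.1 and 148 ± 24.4 CPM (adjusted p = 0.931).

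Of 20 further pericyte genes, 18 were tested, 1 fell and 0 rose in edgeR, with 6 lower and 3 higher at an unadjusted p under 0.05 (median log2 fold change -0.34). DESeq2 called 2 higher and 2 lower, edgeR with no filter 1 higher and 2 lower, and limma on log2(FPKM + 1) 0 higher and 3 lower. Over all genes, edgeR with no filter called 4.02% higher and 0.815% lower, and that limma fit 2.26% and 2.43%. Without ACS replicate 1 edgeR called 0 higher and 5 lower, against 4.99% and 1.69% of all genes. Without ACS replicate 3 it called 3 higher and 1 lower, against 9.72% and 3.01% of all genes. The gene that fell, Gucy1a3 (now named Gucy1a1), encodes the α subunit of soluble guanylate cyclase, the nitric oxide receptor. It was at 15.1, 17.1 and 19.3 CPM in control and at 8.33, 3.81 and 4.19 CPM in ACS libraries (log2 fold change -1.67, SE 0.365, adjusted p = 0.0444). Leaving out ACS replicate 1 gave -2.10 (adjusted p = 0.00524). Without ACS replicate 2 it did not pass (adjusted p = 0.0874), nor without any 1 control library, where no gene in the table passed. It passed in 12 of 19 alternatives. The highest FPKM averaged over all libraries was that of Steap4, a metalloreductase, which was at 47.4 ± 4.71 and 129 ± 76.0 CPM (adjusted p = 0.122). In control Mcam was higher (16.7 against 11.9 FPKM). All ACS libraries were below all control libraries in 7 of the 18 tested genes and above them in 1, against 14.8% and 16.7% of all tested genes. These genes and the 4 pericyte genes above were listed with results of these data known.

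In the Notch pathway 0 of 13 tested genes passed in edgeR (4 higher and 3 lower at an unadjusted p under 0.05), while DESeq2 called 3 higher and 1 lower. Without ACS replicate 3 edgeR called 4 higher and 1 lower, against 9.72% and 3.01% of all genes. With library totals as the scale it called 1 lower and 0 higher, against 1.75% and 2.66% of all genes. Among the receptors, Notch2 was at 30.6, 25.6 and 30.4 CPM in control and at 131, 45.4 and 50.2 CPM in ACS libraries (log2 fold change 1.39, adjusted p = 0.0916), opposite in sign to Notch3. Notch1 (52.6 ± 12.5 and 72.4 ± 31.7 CPM, adjusted p = 0.472) and Notch4 (20.9 ± 7.38 and 21.2 ± 9.20 CPM, adjusted p = 0.983) overlapped between groups. Of the ligands, Jag1 was at 20.7 ± 4.81 and 22.9 ± 11.2 CPM and Dll4 at 20.5 ± 4.77 and 16.8 ± 7.05 CPM, while Jag2 was at 33.1 ± 4.07 and 16.8 ± 9.40 CPM (adjusted p = 0.175). The nuclear targets differed in sign: Heyl, a target in mural cells, was at 16.6 ± 3.76 and 6.44 ± 2.17 CPM (-1.36, adjusted p = 0.0591), and Hes1, made in many cell types, at 17.4 ± 2.47 and 33.9 ± 4.32 CPM (0.96, adjusted p = 0.0621). Hes1 was the most abundant of the list per length, and Heyl was named after its values were seen.

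PDGF ligands and the other PDGF receptor gave 0 of 5 past the threshold in edgeR, DESeq2 or limma-voom, with 1 at an unadjusted p under 0.05 in edgeR. Pdgfb, the ligand that endothelium presents to Pdgfrb, was at 56.0, 42.9 and 19.2 CPM in control and at 27.9, 17.8 and 23.0 CPM in ACS libraries (log2 fold change -0.78, adjusted p = 0.268). Its control libraries spread so far that the groups overlapped. Pdgfra, the fibroblast receptor, was at 19.8 ± 4.87 and 46.9 ± 31.2 CPM (1.25, adjusted p = 0.140). Pdgfa, Pdgfc and Pdgfd had log2 fold changes of 0.01, -0.58 and -0.58 with adjusted p from 0.468 to 0.988.

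Receptors, ligands and channels that set vessel tone gave 2 increases. Of 17 listed, 14 were tested, 2 rose and 0 fell. Edn1, which encodes the constrictor endothelin 1 made by endothelium, was at 0.341, 0.242 and 0.165 CPM in control and at 8.98, 2.57 and 2.29 CPM in ACS libraries (log2 fold change 4.17, SE 0.701, adjusted p = 0.0241), or 3.26 on leaving out ACS replicate 1. The control values of Edn1 rested on 4 to 7 counts. Agtr1a, the angiotensin II receptor of vascular smooth muscle, was at 2.39, 3.87 and 3.47 CPM and then at 11.1, 11.5 and 6.75 CPM (1.59, SE 0.359, adjusted p = 0.0476; 0.0857 when scaled by library totals). The most abundant, Kcnj11, is given above. Agtr1a passed in 6 of 19 alternatives: its call was also lost without ACS replicate 2 (adjusted p = 0.105), without mitochondrial and haemoglobin genes (0.0510), with limma-voom (0.0579) and in the 3 FPKM fits (0.0788 to 0.286). Edn1 passed in 13 of 18. Neither gene passed without any 1 control library, where no gene in the table passed, so those fits do not single them out.

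Of 12 regulators of G protein signalling other than Rgs5, 9 were tested, 1 rose and 0 fell in edgeR. DESeq2 called 2 higher and 1 lower. Scaling by library totals and limma on log2(FPKM + 1) or log2(FPKM + 0.1) each called 0 higher and 1 lower. Over all genes these settings called 1.75%, 2.43% and 1.19% lower, in that order. The gene that rose, Rgs16, missed the threshold under these settings, and another gene of the list made up the lower call. Rgs16 did not turn in sign: its log2 fold change was at least 0.90 in all 19 alternatives. Rgs16 was at 4.78, 3.63 and 2.81 CPM in control and at 13.2, 8.70 and 11.6 CPM in ACS libraries (log2 fold change 1.58, SE 0.339, adjusted p = 0.0442). It did not pass without ACS replicate 2 (adjusted p = 0.0556) or when scaled by library totals (adjusted p = 0.0684), and passed in 8 of 19 alternatives. Nor did it pass without any 1 control library, where no gene in the table passed. Rgs4, named after its values were seen, was at 10.2, 12.9 and 17.1 CPM in control and at 7.86, 4.27 and 3.96 CPM in ACS libraries, which were all lower (-1.33, adjusted p = 0.0769). Rgs2, the most abundant per length, was at 18.1 ± 17.5 and 11.9 ± 4.33 CPM (adjusted p = 0.611).

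**Figure D4:**
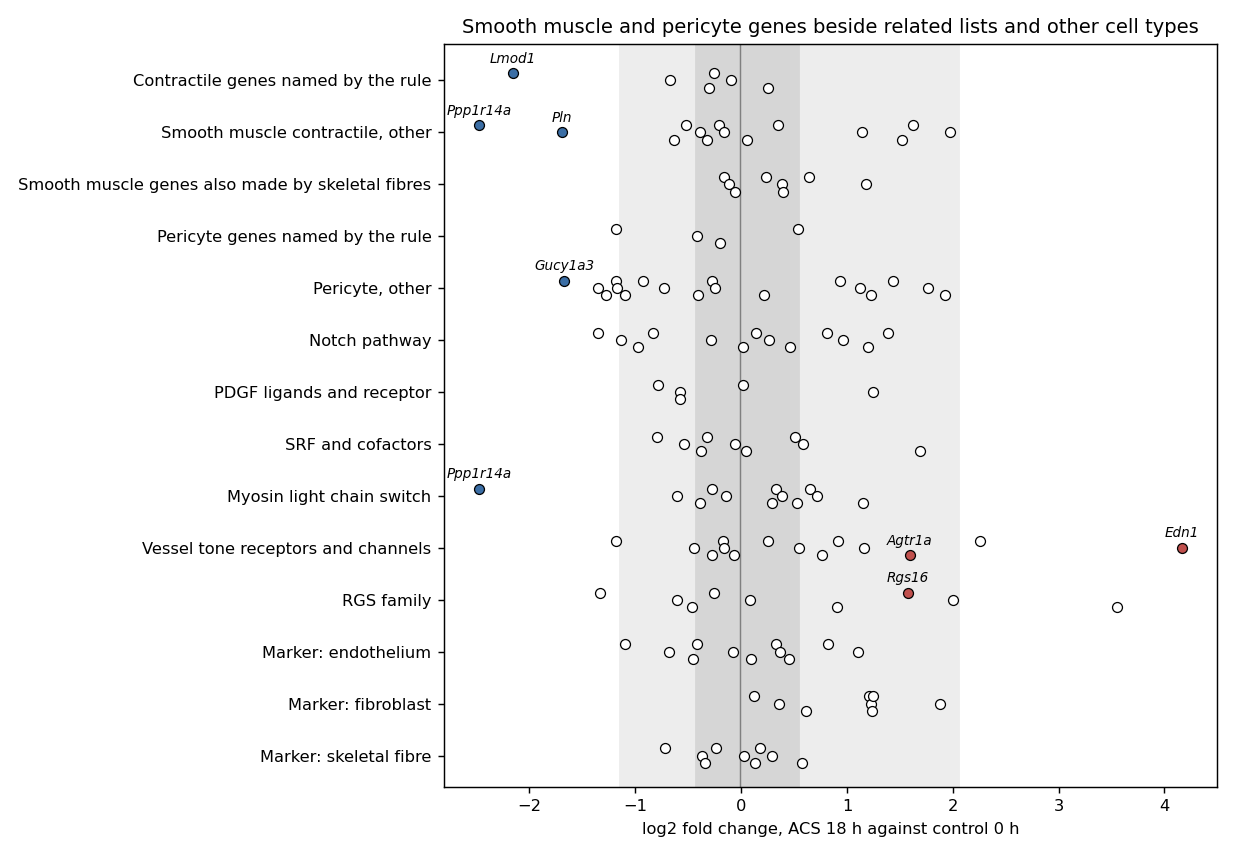
Each point is a tested gene at its log2 fold change, ACS 18 h against control 0 h (horizontal axis), grouped by list (vertical axis), with genes past the edgeR threshold filled blue (lower) or red (higher) and named. Dark and light grey bands run from the 25th to the 75th and from the 5th to the 95th percentile of all tested genes. Lmod1, Ppp1r14a, Pln and Gucy1a3 lie below the lighter band, as do genes that were not called, among them Notch3, Heyl and Rgs4. The fibroblast markers all lie above 0.

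Markers of other cells in the same libraries were as follows. Of 11 tested endothelial markers 0 passed in edgeR, DESeq2 or limma-voom. Without ACS replicate 1, 2 passed in edgeR, against 6.68% of all genes in either direction. With all libraries 1 was lower and 1 higher at an unadjusted p under 0.05, and the median log2 fold change was 0.09. The summed level of these markers was 442 to 664 CPM in control and 1107, 876 and 390 CPM in ACS replicates 1, 2 and 3. All 6 neutrophil markers rose in edgeR and DESeq2 and 0 in limma-voom, from a summed 1.31 to 6.32 CPM in control to 376, 26.1 and 83.7 CPM in ACS replicates 1, 2 and 3. The 7 macrophage markers summed to 23.3 to 39.1 CPM in control and to 214, 65.5 and 39.1 CPM in ACS libraries, and overlapped. Of them 1 rose in edgeR (4 higher and 1 lower at an unadjusted p under 0.05), and DESeq2 called 4 higher and limma-voom 0. The lower one, Adgre1, was at 2.08 ± 0.974 and 0.859 ± 0.410 CPM (log2 fold change -1.30, adjusted p = 0.203, edgeR). Of the 9 fibre markers 0 passed in edgeR, 0 at an unadjusted p under 0.05, and 0 in DESeq2. DESeq2 and limma-voom each had 1 of them lower at an unadjusted p under 0.05. In 1, Myh7 of slow fibres, every ACS library was below every control library (2033 ± 216 and 1231 ± 397 CPM, adjusted p = 0.253, edgeR). The 14 tested relatives of the contractile and pericyte genes gave 0 past the edgeR threshold (3 higher and 1 lower at an unadjusted p under 0.05) and 2 in DESeq2. In the list of muscle precursors and new fibres Myf5 rose and Myod1 fell. The 6 contractile genes summed to 206 to 267 CPM in control and to 188, 116 and 177 CPM in ACS replicates 1, 2 and 3, each ACS library below each control library, as in 14.8% of single tested genes. Without Lmod1, a sum added after the data were seen, the other 5 were at 169, 172 and 226 CPM in control and at 182, 108 and 161 CPM in ACS replicates 1, 2 and 3, and overlapped. The 4 pericyte genes, of which Abcc9 makes up most, summed to 544 to 641 CPM and to 399, 578 and 523 CPM, and overlapped. The part of these other cells' RNA in the values of the smooth muscle and pericyte genes was not tested.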

How the data were processed

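Ribosomal RNA was removed before sequencing, per the protocols in the labels. The authors deposited 1 table of whole-number read counts and FPKM values per gene. Per the submitters' processing notes, the tools and build were HISAT2 2.0.4, StringTie 1.3.0 and Rnor 6.0. How reads were counted, by strand and for several matches, is not given in the sources used, so paralogues and antisense partners may share reads.

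Counts were filtered with filterByExpr of edgeR (at least 10 counts, 15 in total), which left 12873 genes, scaled by TMM and compared between groups by edgeR's quasi-likelihood test, with p-values adjusted over all genes (Benjamini-Hochberg, 0.05). The coefficient of variation between libraries of a group was 0.381 (edgeR's common estimate). Each SE is the log2 fold change over the root of F. Library totals of 14340865 to 21003928 counts limit genes such as Cnn1. Every pair of libraries differed by more than sampling noise (chi-square per degree of freedom at least 38.2). The test was also run on counts simulated with the fitted spread and without an outlying library, which cannot vouch for the calls in these data.

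The 10 genes, 16 lists and the rule for named genes (all 10 genes; in each list the genes past the threshold and the most abundant by FPKM; relatives, PDGF genes and Notch receptors and ligands as values) were chosen with earlier results of these data known. Of 182 symbols 172 matched, 2 through an older symbol in RefSeq's gene table (GRCr8), and for 2 with several rows the largest was used. Same-numbered libraries are not known to be paired. Alternatives covered scaling, test, filter, FPKM with pseudocounts of 1 and 0.1, a replicate block, libraries described with "ji", and each library left out. Versions: edgeR 4.0.16 (in R 4.3.3), DESeq2 1.42.0, limma 3.58.1, plots by matplotlib 3.10.9.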

Additional observations from a re-analysis of the deposited data

How the results depend on the processing

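Of the 10 genes 1 was called with all libraries. DESeq2 called 2, limma on log2(FPKM + 1) with no filter called 0, and leaving out 1 library gave 0 to 1, with 0 without ACS replicate 2 or any 1 control library (2 lower and 0 higher at an unadjusted p under 0.05 in each). Over all genes 533 were called, 1749 with DESeq2, 333 with limma-voom, 330 with limma on log2(FPKM + 0.1), 12 with limma on log2(FPKM + 1) and no filter, 908 with no filter in edgeR, 280 with "ji" (a word in 2 sample descriptions) as a term, 201 without those 2, and 0 to 1684 when 1 library was left out. Scaling by library totals moved the median log2 fold change of all genes from -0.01 to -0.32 and the calls from 442 higher and 91 lower to 342 and 225. Myl9 turned to -0.15 with library totals, -0.014 with limma-voom, -0.27 with limma on log2(FPKM + 1) with or without a filter, -0.30 with limma on log2(FPKM + 0.1) and -0.28 without ACS replicate 1. With 1 library left out, Myl9 ranged from -0.28 to 0.60, Abcc9 from -0.34 to 0.033 and Cnn1 from -0.59 to 0.011. The cause was not tested. The replicate block called 1 of the 10 genes and 505 in all. Under this block Lmod1 was at -2.22 (adjusted p = 0.0214), and Pln, Agtr1a and Rgs16 did not pass (adjusted p = 0.0789, 0.0711 and 0.0547). Deviations of same-numbered libraries correlated at -0.06, 0.01 and 0.04, and only 1 of 3 control libraries correlated best with its own number. Cnn1 was not tested with the filter of 50 counts.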
